A study of Mus musculus with 16 samples.

Results

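AIM2 is a cytosolic receptor for double-stranded DNA that starts inflammasome assembly, and it works beside other proteins that detect, relay or remove nucleic acids in the cytosol. 9 genes of that surrounding machinery were described here out of the 53090 gene entries in the deposited tables, and all 9 were found by symbol and tested in every comparison. They are Tmem173 (the adaptor STING), the kinase genes Tbk1 and Ikbke, the transcription factor gene Irf3, the nucleic acid sensor genes Zbp1 and Ddx41, and Trex1, Samhd1 and Rnaseh2b, whose products remove DNA, deoxynucleotides or RNA-DNA hybrids.

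The libraries came from splenic CD4+ T cells of wild-type C57BL/6 mice (WT) and of mice lacking Aim2 in the whole body on the C57BL/6 background (Aim2-/-). Naive cells (Tn) had been selected immunomagnetically, and cells from the same kind of preparation were stimulated for 48 h through CD3 and CD28 with TGF-beta and IL-2 (Treg). These Treg libraries are bulk cultures, not sorted FOXP3+ cells, and no naive cells cultured without TGF-beta were sequenced here, so stimulation, cytokines and time in culture cannot be told apart. Each of the 4 groups (WT Tn, Aim2-/- Tn, WT Treg and Aim2-/- Treg) held 4 mRNA libraries, and ages and the number of mice behind each library were not given in the sources used here. The p-values below therefore measure the spread between these libraries, which may be technical in part.

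In textbook outline, the enzyme cGAS binds cytosolic DNA and makes a cyclic dinucleotide that STING recognises. STING then recruits TBK1, with IKK epsilon (Ikbke) as a related kinase, and the phosphorylated transcription factor IRF3 turns on interferon genes. ZBP1 recognises left-handed nucleic acids and can start necroptosis, and the helicase DDX41 has been described as a DNA sensor upstream of STING. TREX1 digests DNA in the cytosol, SAMHD1 breaks down deoxynucleotide triphosphates, and RNASEH2B is a subunit of the enzyme that cuts RNA out of hybrids with DNA. Loss of any of the last 3 causes an interferon-driven disease in people.

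Promoters of the 3 members that relay the STING signal and were lower in Treg cells of each genotype follow. Each window spans the annotated start, in the RefSeq annotation of GRCm38.p6, reads 5′ to 3′ in the direction of transcription, and has motif matches in capitals.
Tbk1 promoter, chr10:121586745-121587044, minus strand: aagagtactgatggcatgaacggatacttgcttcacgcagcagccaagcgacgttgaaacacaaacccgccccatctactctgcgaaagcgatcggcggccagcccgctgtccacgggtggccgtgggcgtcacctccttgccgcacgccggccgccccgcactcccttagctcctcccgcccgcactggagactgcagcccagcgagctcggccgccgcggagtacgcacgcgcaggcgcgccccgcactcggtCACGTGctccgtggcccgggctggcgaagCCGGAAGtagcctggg
Ikbke promoter, chr1:131279514-131279813, minus strand: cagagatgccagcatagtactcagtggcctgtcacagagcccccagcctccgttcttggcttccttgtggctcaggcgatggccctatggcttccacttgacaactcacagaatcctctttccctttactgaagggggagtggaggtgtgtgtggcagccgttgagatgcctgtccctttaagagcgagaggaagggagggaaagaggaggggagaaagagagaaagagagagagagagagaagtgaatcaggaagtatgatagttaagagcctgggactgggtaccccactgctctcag
Irf3 promoter, chr7:44997398-44997697, plus strand: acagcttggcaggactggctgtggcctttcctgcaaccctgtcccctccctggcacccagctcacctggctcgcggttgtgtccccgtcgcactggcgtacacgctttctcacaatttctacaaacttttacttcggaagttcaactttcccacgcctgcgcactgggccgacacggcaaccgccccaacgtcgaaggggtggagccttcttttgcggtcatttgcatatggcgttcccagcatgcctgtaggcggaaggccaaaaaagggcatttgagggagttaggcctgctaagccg
The Tbk1 promoter held 1 E-box (CACGTG) and 1 ETS-type motif (CCGGAAG), and none of the 5 motifs searched on either strand was found in the Ikbke or Irf3 window. The other 3 motifs were GAAANNGAA (interferon response), GGGACTTTC (kappa B) and TGACGTCA (cAMP response). Among 32851 mouse promoters of the same length, 7.15% held CACGTG, 8.86% CCGGAAG, 8.56% GAAANNGAA, 0.353% GGGACTTTC and 1.79% TGACGTCA. Entries for Trex1 (2 starts), Samhd1 and Ddx41 held none of these motifs. A match here is a run of letters, not a measured binding site.

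Libraries held 22516424 to 34533316 expected counts, and the level of each gene is given as CPM, its counts relative to library size, scaled over all 16 libraries by the trimmed mean of M-values (TMM). Every member was well covered, with the lowest single value at 226 counts (Rnaseh2b in WT Tn). The Aim2 level was 34.9 ± 2.86 CPM (SD, n = 4) in WT Tn and 7.29 ± 1.29 CPM in Aim2-/- Tn. In Treg cells it was 40.3 ± 3.11 CPM in WT and 9.33 ± 1.58 CPM in Aim2-/-. Mean Foxp3 rose from 2.72 CPM in WT Tn to 481 CPM in WT Treg. The summed level of 7 B cell markers was at most 3.15 CPM in any library, and that of 8 myeloid markers at most 5.34 CPM. The sum of 6 CD8 T cell and NK cell markers was 27.1 to 49.8 CPM in Tn libraries and 5.89 to 9.20 CPM in Treg libraries.

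**Figure D1:**
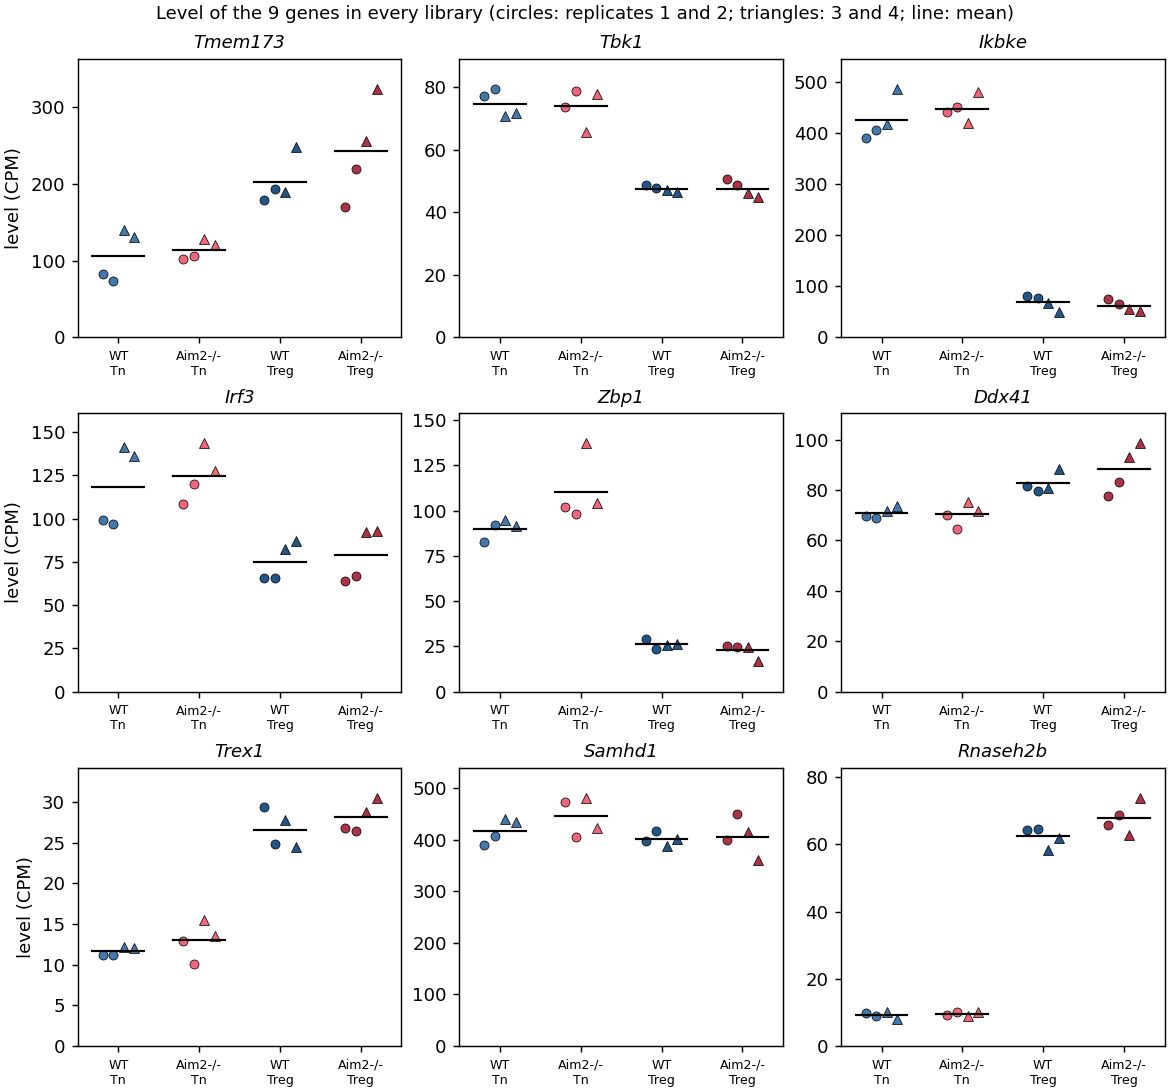
Level in CPM (vertical axes, from 0) of the 9 genes in each of the 16 libraries, by group; circles are replicates 1 and 2, triangles replicates 3 and 4, and lines are means of 4. Samhd1 is the 1 gene whose Tn and Treg libraries overlapped in each genotype, and Tmem173 and Irf3 show triangles above circles in most groups.

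Culture in Treg conditions was compared with the naive state first, within each genotype. Of the 9 members, 8 passed the test in each genotype, 4 higher and 4 lower in Treg cells. Rnaseh2b, Trex1, Tmem173 and Ddx41 were higher, while Ikbke, Zbp1, Irf3 and Tbk1 were lower. This share has to be read against the whole transcriptome, where edgeR called 76.9% of genes in WT (37.7% higher, 39.2% lower) and 79.3% in Aim2-/- (39.1% higher, 40.2% lower). Libraries of the 2 states did not overlap for 8 of 9 members in each genotype, against 72.9% of all genes in WT and 74.7% in Aim2-/-. Levels and fold changes here are relative to the rest of each library, so amounts of RNA per cell were not measured. A lower value can therefore go with an unchanged amount per cell if total RNA per cell differed. In bulk RNA, fewer expressing cells and less RNA per cell also cannot be told apart.

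**Figure D2:**
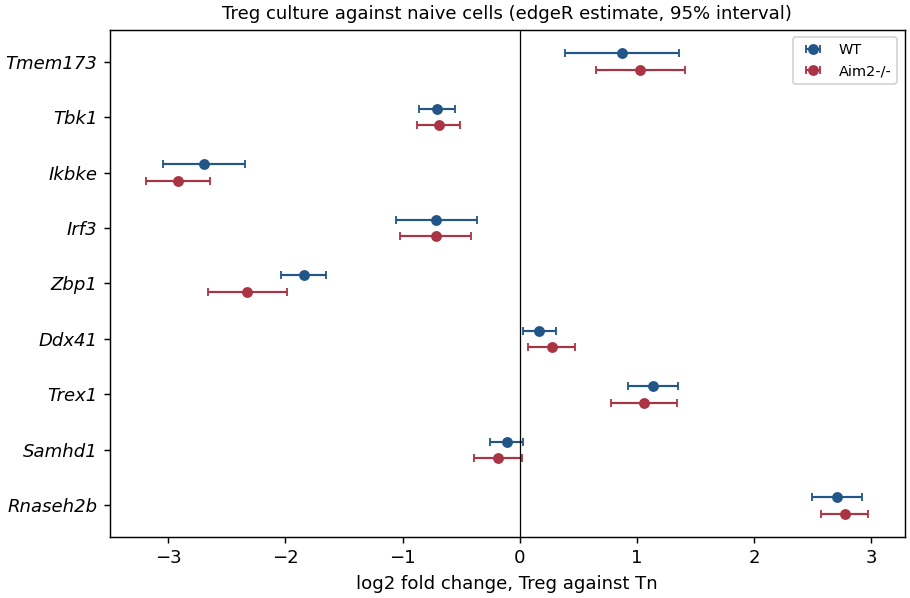
Log2 fold change of Treg against Tn (horizontal axis) for each member in WT and Aim2-/- cells, with 95% intervals from the edgeR fit. Rnaseh2b at 2.71 and Ikbke at -2.69 in WT lie farthest from 0, and the intervals of Samhd1 include 0 in each genotype.

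The adaptor STING is encoded by Tmem173 (chr18:35733679-35740554, minus strand). Its level in the 4 WT Tn libraries was 82.1, 72.9, 140 and 131 CPM, and in the 4 WT Treg libraries 178, 193, 190 and 248 CPM. Aim2-/- Tn libraries held 102, 106, 129 and 121 CPM, and Aim2-/- Treg libraries 170, 220, 256 and 324 CPM. The lowest Treg library therefore lay above the highest Tn library, although the 4 libraries within a group were widely spread. Tmem173 was 1.83-fold higher in WT Treg (log2 fold change 0.87 ± 0.22 SE, adjusted p = 0.0045, edgeR) and 2.04-fold higher in Aim2-/- Treg (1.03 ± 0.17, adjusted p = 0.00024).

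The kinases moved the other way. Ikbke (chr1:131254343-131279606, minus strand) had a level of 390, 405, 416 and 486 CPM in WT Tn and 79.9, 76.8, 66.0 and 49.5 CPM in WT Treg. In Aim2-/- cells it was 441, 449, 418 and 479 CPM in Tn and 74.7, 65.0, 55.3 and 51.1 CPM in Treg. Ikbke thus had the steepest fall among the members, 6.46-fold in WT (log2 fold change -2.69 ± 0.16 SE, adjusted p = 2.1e-07, edgeR) and 7.54-fold in Aim2-/- (-2.92 ± 0.12, adjusted p = 2.6e-09). Tbk1 (chr10:121546455-121586787, minus strand) spanned 65.5 to 79.4 CPM over the 8 Tn libraries and 44.7 to 50.5 CPM over the 8 Treg libraries. It fell 1.63-fold in WT (-0.71 ± 0.07, adjusted p = 6.7e-06) and 1.62-fold in Aim2-/- (-0.69 ± 0.08, adjusted p = 1.4e-05).

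Levels of the 2 kinase genes were compared per kilobase of the longest annotated protein-coding transcript. On that scale, the ratio of the Ikbke to the Tbk1 level was 4.72 to 6.30 in WT Tn libraries and 0.989 to 1.53 in WT Treg libraries. In Aim2-/- cells the ratio was 5.31 to 5.94 in Tn and 1.06 to 1.38 in Treg. If all annotated exons are merged to give the length, a choice made after seeing the data, the ratio of the group means drops from 5.28 to 2.46 in WT Tn and from 1.33 to 0.621 in WT Treg. The order of the kinases in Treg cells thus depends on the length used, while the ratio was lower in Treg than in Tn on each.

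Irf3 (chr7:44997648-45002848, plus strand), the target of these kinases, was measured at 99.1, 96.6, 141 and 136 CPM in WT Tn and at 65.5, 65.4, 82.2 and 87.0 CPM in WT Treg. Aim2-/- Tn libraries held 108, 120, 144 and 128 CPM and Aim2-/- Treg libraries 63.9, 66.8, 92.5 and 92.7 CPM. Tn and Treg libraries did not overlap, but the gap between the lowest WT Tn library and the highest Aim2-/- Treg library was small, 96.6 against 92.7 CPM. Irf3 fell 1.64-fold in each genotype (log2 fold change -0.71 ± 0.15 SE in WT, adjusted p = 0.0019, and -0.72 ± 0.14 in Aim2-/-, adjusted p = 0.00054, edgeR). 88 bases of its exons overlap Bcl2l12 on the other strand.

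Of the sensor genes, Zbp1 (chr2:173206612-173218923, minus strand) had levels of 82.4, 91.9, 94.6 and 91.4 CPM in WT Tn and 28.9, 23.5, 25.5 and 26.3 CPM in WT Treg. The Aim2-/- libraries held 102, 97.9, 137 and 104 CPM in Tn and 25.3, 24.9, 24.3 and 16.9 CPM in Treg. The lowest Tn library lay far above the highest Treg library, at 82.4 against 28.9 CPM. Zbp1 fell 3.59-fold in WT (log2 fold change -1.84 ± 0.09 SE, adjusted p = 4.6e-08, edgeR) and 5.01-fold in Aim2-/- (-2.33 ± 0.15, adjusted p = 8.7e-08).

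Ddx41 (chr13:55530410-55536658, minus strand) changed least among the members that passed the test. Its level was 68.8 to 73.5 CPM in WT Tn, 64.4 to 75.1 CPM in Aim2-/- Tn, 79.6 to 88.4 CPM in WT Treg and 77.5 to 98.6 CPM in Aim2-/- Treg. The log2 fold change was 0.17 ± 0.06 SE in WT (adjusted p = 0.035, edgeR) and 0.27 ± 0.09 in Aim2-/- (adjusted p = 0.016). The WT call was lost with scaling by library totals (adjusted p = 0.050), within replicates 3 and 4 (adjusted p = 0.12) and when any single WT Tn library was left out (adjusted p from 0.052 to 0.17). The Aim2-/- call was lost within replicates 1 and 2 (adjusted p = 0.059) and without Aim2-/- Tn replicate 1, 2 or 4 (adjusted p = 0.081, 0.10 and 0.075).

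Among the genes that remove nucleic acids, Rnaseh2b (chr14:62292589-62372992, plus strand) showed the largest rise of all 9 members. Its level was 9.82, 8.91, 10.01 and 8.12 CPM in WT Tn and 64.4, 64.6, 58.4 and 62.0 CPM in WT Treg. In Aim2-/- cells it was 9.07, 10.1, 9.01 and 9.97 CPM in Tn and 65.6, 68.7, 62.9 and 73.9 CPM in Treg. The 2 states were separated by a wide gap, with Tn libraries at no more than 10.1 CPM and Treg libraries at no less than 58.4 CPM. Rnaseh2b was 6.52-fold higher in WT Treg (log2 fold change 2.71 ± 0.09 SE, adjusted p = 9.0e-09, edgeR) and 6.84-fold higher in Aim2-/- Treg (2.77 ± 0.09, adjusted p = 3.7e-10).

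The other subunits of the same enzyme had smaller fold changes. Rnaseh2a, the catalytic subunit, was 2.06-fold higher in WT Treg and 1.78-fold higher in Aim2-/- Treg (adjusted p = 2.7e-06 and 3.8e-05, edgeR). Rnaseh2c, a structural subunit, had log2 fold changes of 0.14 in WT and -0.11 in Aim2-/- that did not pass the test (adjusted p = 0.28 and 0.34). The difference in rise between subunits was not tested.

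Trex1 (chr9:109057933-109059734, minus strand) held 11.2, 11.2, 12.2 and 12.0 CPM in WT Tn and 29.3, 24.8, 27.8 and 24.4 CPM in WT Treg. The Aim2-/- libraries held 12.9, 10.02, 15.5 and 13.5 CPM in Tn and 26.7, 26.5, 28.7 and 30.5 CPM in Treg. Trex1 was 2.20-fold higher in WT Treg (log2 fold change 1.14 ± 0.10 SE, adjusted p = 2.7e-06, edgeR) and 2.09-fold higher in Aim2-/- Treg (1.06 ± 0.13, adjusted p = 1.3e-05). All of its annotated exon bases also lie in exons of Atrip on the same strand, and its expected counts were not whole numbers in any of the 16 libraries. Trex1 levels therefore depend on how shared reads were divided and are uncertain.

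Samhd1 (chr2:157097533-157135265, minus strand) was the 1 member that did not pass the test. Its level was 390 to 440 CPM in WT Tn, 405 to 482 CPM in Aim2-/- Tn, 387 to 418 CPM in WT Treg and 361 to 450 CPM in Aim2-/- Treg, so all 4 groups overlapped. The log2 fold change was -0.11 in WT (95% interval -0.26 to 0.03, adjusted p = 0.13, edgeR) and -0.19 in Aim2-/- (-0.39 to 0.02, adjusted p = 0.082). A small decrease lies within these intervals, and the test was passed without WT Tn replicate 1 (adjusted p = 0.045) and without Aim2-/- Tn replicate 2 (adjusted p = 0.020) or 4 (adjusted p = 0.040). As for Trex1, the expected counts of Samhd1 were not whole numbers in any library.

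The order of the members changed with the state when levels were set per kilobase of the longest protein-coding transcript. In WT Tn, Ikbke stood first at 131 CPM per kb, followed by Samhd1 at 106, Irf3 at 58.2, Tmem173 at 46.3, Zbp1 at 45.3 and Ddx41 at 32.2 CPM per kb. Tbk1 at 24.7, Trex1 at 10.8 and Rnaseh2b at 6.17 CPM per kb closed the order. In WT Treg, Samhd1 stood first at 102 CPM per kb, followed by Tmem173 at 88.1, Rnaseh2b at 41.7, Ddx41 at 37.5 and Irf3 at 36.9 CPM per kb. Trex1 at 24.5, Ikbke at 20.9, Tbk1 at 15.7 and Zbp1 at 13.1 CPM per kb closed it. Several members, among them Rnaseh2b, Ikbke, Samhd1, Irf3 and Zbp1, have long annotated exons outside that transcript, so the order depends on the length chosen. With all exons merged, Ikbke and Samhd1 still led in WT Tn, but Tmem173 stood above Irf3 (38.8 and 34.4 CPM per kb). In WT Treg, Tmem173 then stood above Samhd1 (73.9 and 43.8 CPM per kb), and Rnaseh2b was at 9.99 CPM per kb.

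Loss of Aim2 was compared next, within each state. None of the 9 members passed the test in Tn or in Treg cells, and libraries of the genotypes separated for 1 member in Tn (6.84% of all genes) and 0 in Treg (2.33%). Over all genes, edgeR called 0.231% in Tn and 0.219% in Treg. At an unadjusted p under 0.05, 1 member was found in Tn (10.3% of all genes) and 0 in Treg (2.31% of all genes). DESeq2 and limma-voom called 0 members in each state as well. With TMM scaling, all 9 log2 fold changes in Tn were above 0 (52.7% of all genes), with a median of 0.10 against 0.01 over all genes tested, but Tbk1 and Ddx41 fell just below 0 with other scalings, with DESeq2 and with other filters. In Treg, 6 of 9 were above 0 (50.1% of all genes), with a median of 0.06 against 0.00.

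**Figure D3:**
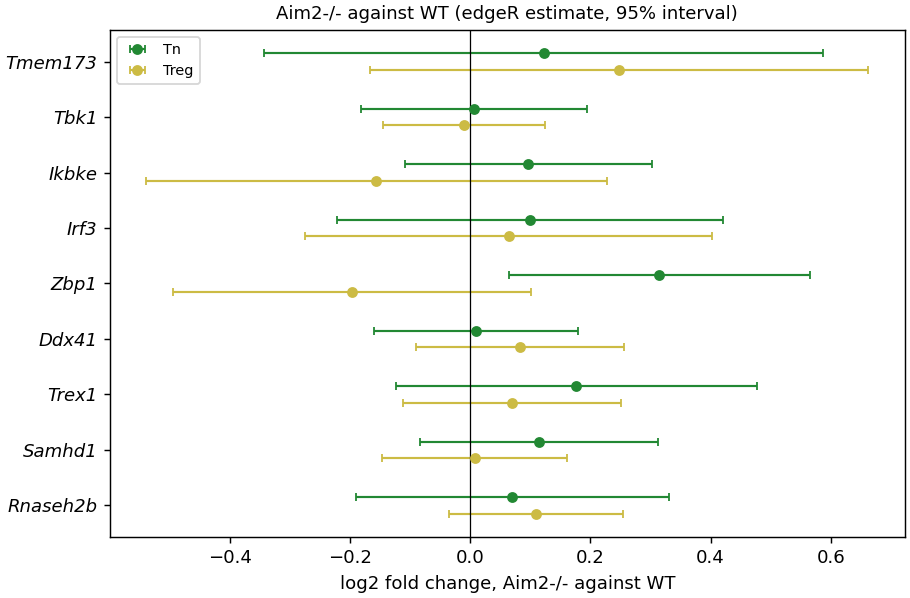
Log2 fold change of Aim2-/- against WT (horizontal axis) for each member in Tn and in Treg cells, with 95% intervals from the edgeR fit. The Tn interval of Zbp1, from 0.06 to 0.57, is the single interval that leaves out 0, and no member passed the adjusted test.

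Zbp1 was the member at an unadjusted p under 0.05 in Tn. Its 4 Aim2-/- Tn libraries, at 97.9 to 137 CPM, lay above the 4 WT Tn libraries, at 82.4 to 94.6 CPM, with no overlap. The log2 fold change was 0.31 ± 0.11 SE (adjusted p = 0.42, edgeR), and it dropped to 0.19 (adjusted p = 0.75) without Aim2-/- Tn replicate 3, the highest library. In Treg cells the log2 fold change was -0.20 ± 0.13 (adjusted p = 1.0), and -0.07 without Aim2-/- Treg replicate 4, the lowest library. The difference between these genotype effects, tested as an interaction over all 16 libraries, was -0.50 ± 0.18 (adjusted p = 1.0, edgeR), with an unadjusted p under 0.05 as had 3.49% of all genes. The summed level of 5 erythroid markers also separated the genotypes in Tn, at 1.22 to 3.96 CPM in WT and 5.11 to 7.78 CPM in Aim2-/-. So did that of 7 B cell markers, at 1.54 to 2.14 CPM in WT and 2.42 to 3.15 CPM in Aim2-/-. Of these 7 genes, 3 in WT Tn and 2 in Aim2-/- Tn held 3 counts or fewer in every library. Cd79b was not higher in Aim2-/-, at a mean of 0.343 CPM in WT Tn and 0.302 CPM in Aim2-/- Tn. The part of either sum in the Zbp1 values was not tested.

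For the other members, the 95% intervals show which changes stay possible in the main fit, which has no term for replicate number. In Tn, the tightest were Ddx41 at -0.16 to 0.18, Tbk1 at -0.18 to 0.19 and Samhd1 at -0.08 to 0.31 on the log2 scale. In Treg, Tbk1 at -0.14 to 0.12, Rnaseh2b at -0.04 to 0.25 and Samhd1 at -0.15 to 0.16 were the tightest. Tmem173 was the least certain in this fit, at -0.34 to 0.59 in Tn and -0.17 to 0.66 in Treg. With a covariate for replicates 1 and 2 against 3 and 4, its SE was 0.109 in place of 0.207 in Tn. That was below the SE of Rnaseh2b with the same covariate, 0.115. In Treg the SE of Tmem173 was 0.136 with the covariate, in place of 0.183. Ikbke lies on the same chromosome as Aim2, 42.1 Mb away, and its intervals were -0.11 to 0.30 in Tn and -0.54 to 0.23 in Treg.

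The response to culture was then compared between genotypes. No member passed the interaction test, and edgeR called 0.0205% of all genes there. Apart from Zbp1, no member had an unadjusted p under 0.05. The interaction intervals were -0.66 to 0.17 for Ikbke, -0.20 to 0.30 for Rnaseh2b and -0.51 to 0.78 for Tmem173 on the log2 scale. Differences in culture response within these intervals could not be resolved by this fit, which has no replicate term, with 4 libraries in each group.

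Tmem173 and Irf3 varied together within groups, along a split between replicate numbers. The mean Tmem173 level of replicates 3 and 4 was 1.75 times that of replicates 1 and 2 in WT Tn, 1.203 times in Aim2-/- Tn, 1.18 times in WT Treg and 1.49 times in Aim2-/- Treg. For Irf3 these ratios were 1.42, 1.19, 1.29 and 1.42, and replicates 3 and 4 lay above replicates 1 and 2 in all 4 groups. Tbk1 went the other way in small steps, with ratios of 0.911 to 0.970. Ikbke went the other way in Treg cells alone and by more, with ratios of 0.737 in WT and 0.761 in Aim2-/-. In Tn its ratios were 1.13 in WT and 1.01 in Aim2-/-. Over the 16 libraries, deviations from the group means had a Pearson r of 0.90 between Tmem173 and Irf3, 0.77 between Tmem173 and Ddx41 and -0.75 between Tmem173 and Tbk1. These are descriptions of libraries that share the replicate split, which the labels do not tie to a batch or day.

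**Figure D4:**
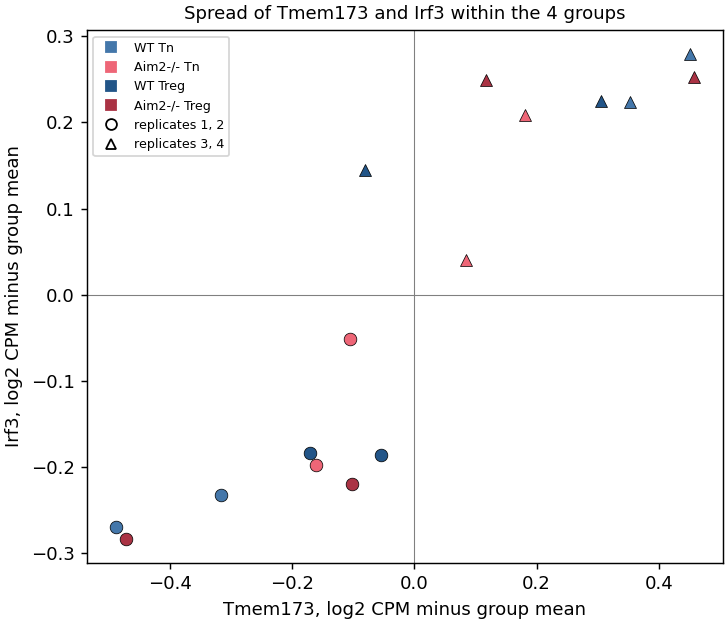
Deviation from the group mean of log2 CPM for Tmem173 (horizontal axis) and Irf3 (vertical axis) in the 16 libraries; colours give the group and shapes the replicate numbers. All 8 libraries of replicates 3 and 4 lie above 0 for Irf3 and all 8 of replicates 1 and 2 below 0.

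The genotype values of Tmem173 and Irf3 in Tn differed in sign between the 2 sets of replicates, with none called. Their culture values kept their direction in each set. The difference between the sets was not tested. Within replicates 1 and 2, Tmem173 in Aim2-/- against WT Tn had a log2 fold change of 0.44 ± 0.10 SE (adjusted p = 0.14, edgeR), and within replicates 3 and 4 it was -0.11 ± 0.10 (adjusted p = 0.55). For Irf3 the values were 0.25 ± 0.10 (adjusted p = 0.29) and -0.03 ± 0.10 (adjusted p = 0.92). In contrast, the rise of Tmem173 in WT Treg was called within each set, at 1.27 ± 0.08 (adjusted p = 3.3e-06) and 0.64 ± 0.14 (adjusted p = 0.0064). So was the fall of Irf3, at -0.57 ± 0.06 (adjusted p = 5.0e-05) and -0.77 ± 0.08 (adjusted p = 0.00015). In WT Tn the summed myeloid markers were 1.28 CPM in replicates 1 and 2 and 3.97 CPM in replicates 3 and 4, and in Aim2-/- Tn they were 2.90 and 4.39 CPM. In Treg cells the sums went the other way, from 0.462 to 0.137 CPM for WT and from 0.507 to 0.127 CPM for Aim2-/-. Those Treg sums lie near the floor, since 7 of the 8 genes held 3 counts or fewer in every Treg library of each genotype. The part of the myeloid markers in the Tmem173 and Irf3 values was not tested.

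Across the 16 libraries, each member was matched to the 2 protein-coding genes with the most similar profile of log2 CPM among 8298 genes at a mean of 10 CPM or more. Pearson r was 0.98 for Tmem173 with Riox2 and Snx6, 0.99 for Tbk1 with Cers6 and Vamp2, and 1.00 for Ikbke with Sema4a and Slc28a2. It was 0.99 for Irf3 with Trabd and Rgs19, 0.99 for Zbp1 with Matk and Klf2, and 0.99 for Trex1 with Prdx2 and Dpy30. Rnaseh2b matched Ddx1 and Nup107 at 1.00, and Ddx41 matched Prkcsh and Usb1 at 0.96. The libraries share the separation of Tn from Treg, and 2922 genes exceeded 0.9 with Rnaseh2b and 1883 with Ikbke. Samhd1, whose Tn and Treg libraries overlapped, had no gene over 0.9, and its best matches were Dnttip1 at 0.85 and Trappc6a at 0.81. Within groups, Irf3 still matched Trabd at 0.97, whereas Rnaseh2b matched Ddx1 at 0.65.

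The rest of the pathway was followed in 6 lists with 86 genes in all. In the culture comparison, 72 of 81 tested genes passed in WT, 34 higher and 38 lower, and 72 of 82 in Aim2-/-, also 34 higher and 38 lower. These shares, 88.9% and 87.8%, stand beside 76.9% and 79.3% of all genes. By direction, 37.7% of all genes were called higher and 39.2% lower in WT, and 39.1% and 40.2% in Aim2-/-. The counts of each list below have to be read against those shares. In the genotype comparisons no listed gene passed, of 81 tested in Tn and 76 in Treg, and none of 82 passed the interaction test. At an unadjusted p under 0.05, 6 of 81 were found in Tn, 0 of 76 in Treg and 4 of 82 in the interaction, where the shares of all genes were 10.3%, 2.31% and 3.49%.

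**Figure D5:**
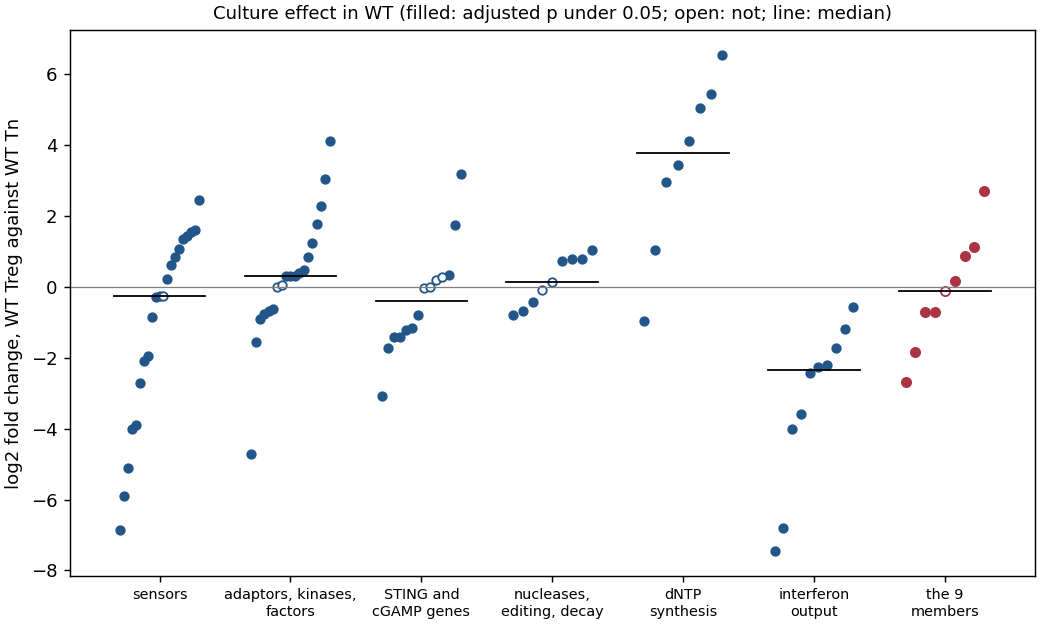
Log2 fold change of WT Treg against WT Tn (vertical axis) for tested genes of the 6 pathway lists and for the 9 members; filled points passed the test at an adjusted p under 0.05, open points did not, and lines are medians. Genes of the interferon output list, which includes the receptor genes Ifnar1 and Ifnar2, all lie below 0. Of the deoxynucleotide synthesis genes, 7 of 8 lie above 0, while members and sensors fall on each side.

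Of 21 tested sensor genes, 9 were higher and 11 lower in WT Treg, with a median log2 fold change of -0.27 against -0.05 over all genes. Mre11a and Xrcc5, which also serve DNA break repair, rose 3.02-fold and 2.91-fold in WT (adjusted p = 2.3e-08 and 4.8e-08, edgeR). The 2'-5'-oligoadenylate synthetase genes Oas1a and Oas3, which respond to double-stranded RNA, fell from 12.7 to 0.372 CPM and from 24.1 to 1.69 CPM (adjusted p = 2.1e-08 and 2.9e-08). In Aim2-/- cells, 9 of 22 were higher and 10 lower, and Oas2 fell from 43.8 to 0.128 CPM (adjusted p = 1.0e-09). No Aim2-/- Treg library held more than 6 counts of Oas2. Mb21d1, which encodes cGAS, had a mean level of 9.59 CPM in WT Tn and 8.34 CPM in WT Treg and did not pass the test (adjusted p = 0.21).

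Of 19 adaptor, kinase and transcription factor genes, 11 were higher and 6 lower in WT Treg, with a median log2 fold change of 0.31. Nfkb1, an NF-kappa B subunit, rose from 292 to 719 CPM (2.37-fold, adjusted p = 2.6e-07, edgeR), and Irf5 rose from 1.68 to 14.5 CPM. Irf7, an interferon-induced relative of Irf3, fell from 76.6 to 2.98 CPM (26.5-fold, adjusted p = 2.1e-08). Ikbkb, a kinase of the NF-kappa B pathway, fell 2.92-fold (adjusted p = 5.9e-08). Aim2-/- cells had 10 higher and 6 lower of 19.

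Of 14 genes that act on STING or on its cyclic dinucleotide ligand, 3 were higher and 7 lower in WT Treg, with a median log2 fold change of -0.41. Slc19a1, a folate carrier that has also been described to import cyclic dinucleotides in human cells, rose from 16.5 to 156 CPM (9.10-fold, adjusted p = 3.3e-08, edgeR). Banf1, a chromatin protein that competes with cGAS for DNA, rose 3.32-fold (adjusted p = 1.7e-06). Enpp1, which degrades the extracellular ligand, fell 8.47-fold (adjusted p = 1.2e-06), and Stim1, a calcium sensor that holds STING at the endoplasmic reticulum, fell 2.64-fold (adjusted p = 8.1e-07). In Aim2-/- cells, 4 were higher and 7 lower of 14, where Trim56 fell 3.46-fold (adjusted p = 4.4e-08).

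Of 9 nuclease, editing and decay genes other than the members, 4 were higher and 3 lower in WT Treg, and 4 higher and 4 lower in Aim2-/- Treg. The median log2 fold changes were 0.14 and -0.11. Beside Rnaseh2a, Rnaseh1, which also cuts RNA in hybrids, was 1.73-fold higher in WT (adjusted p = 5.3e-05, edgeR). Skiv2l, a helicase of cytosolic RNA decay, fell 1.75-fold (adjusted p = 2.5e-06), and Adar, which edits double-stranded RNA, fell 1.34-fold (adjusted p = 0.00072).

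The genes that supply deoxynucleotides, whose triphosphates are the substrates of SAMHD1, had the largest median change of the 6 lists. Of 8, 7 were higher and 1 lower in each genotype, with a median log2 fold change of 3.78 in WT and 3.83 in Aim2-/-. Over all genes, 37.7% were called higher in WT and 39.1% in Aim2-/-. Tyms, thymidylate synthase, rose from 3.45 to 118 CPM and Dut, which removes dUTP, from 23.5 to 267 CPM in WT (adjusted p = 6.0e-10 and 6.2e-10, edgeR). Rrm2, the small subunit of ribonucleotide reductase, rose from 4.35 to 537 CPM in Aim2-/- cells and Tk1, thymidine kinase, from 2.94 to 124 CPM (adjusted p = 5.7e-12 and 1.7e-11). Rrm2b, the p53-inducible form of that subunit, was the 1 that fell, 1.94-fold in WT (adjusted p = 0.00082). The Samhd1 level stayed within 361 to 482 CPM over the same 16 libraries.

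Of 11 genes listed as interferon output, 10 were tested and all 10 were lower in Treg cells of each genotype, with a median log2 fold change of -2.35 in WT and -2.32 in Aim2-/-. Over all genes, 39.2% were called lower in WT and 40.2% in Aim2-/-. Isg15, a ubiquitin-like product of interferon signalling, fell from 10.5 to 0.897 CPM in WT (adjusted p = 2.9e-07, edgeR). The chemokine gene Ccl5 fell from 15.9 to 0.0926 CPM (adjusted p = 3.1e-07, edgeR), with at most 4 counts in any WT Treg library. The sum of 6 CD8 T cell and NK cell markers, whose cells also express Ccl5, was lower in the same libraries. Within that sum Cd8a went the other way at a low level, from a mean of 0.0719 CPM in WT Tn to 0.236 CPM in WT Treg. The part of such cells in the Ccl5 values was not tested. In Aim2-/- cells, Rsad2 fell from 2.84 to 0.0272 CPM (adjusted p = 3.5e-07). No Aim2-/- Treg library held more than 1 count of Rsad2. With 3 counts taken as the floor, its fall was at least 25.0-fold. Ifnar1 and Ifnar2, which are receptor chains for interferon rather than products, count among the 10. Ifnar1 fell 3.14-fold in Aim2-/- cells (adjusted p = 2.2e-06). Ifnar2 had log2 fold changes of -0.56 in WT and -0.57 in Aim2-/-. Ifnb1 had 0 counts in all 16 libraries.

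In the genotype comparisons, the listed genes of smallest p in Tn were Mre11a (log2 fold change -0.27, adjusted p = 0.38, edgeR), Rnaseh2c (0.36, adjusted p = 0.39), Tank (0.22, adjusted p = 0.41) and Dut (0.27, adjusted p = 0.44). In the other lists they were Stim1 (-0.19, adjusted p = 0.58) and Usp18 (0.49, adjusted p = 0.58). In Treg the smallest adjusted p over the listed genes was 1.0, with Myd88 at 0.16, Enpp1 at -0.51 and Prkdc at -0.23 on the log2 scale. The remaining lists had Apobec3 at 0.09, Dut at 0.11 and Cxcl10 at 0.49. The median log2 fold change of the 10 tested interferon output genes was 0.29 in Tn against 0.01 over all genes, with 8 of 10 above 0 (52.7% of all genes) and none called. In Treg it was -0.0033 over 7 tested genes, with 3 of 7 above 0.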

How the data were processed

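RNA was sequenced from 16 libraries, 4 in each of 4 groups taken from the titles and descriptions. The authors prepared stranded mRNA libraries, aligned single-end reads to GRCm38 with STAR and estimated gene counts with RSEM; versions, and the strand setting of the counting, were not given in the sources used here. The deposited values are expected counts per gene, not normalized, and were rounded to whole numbers here. Library totals were 22516424 to 34533316, so each member rested on 226 counts or more in every library.

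Genes for which 4 or more of the libraries compared held 10 counts or more were tested with edgeR 4.0.16 (R 4.3.3, TMM, robust quasi-likelihood F test, two-sided), with Benjamini-Hochberg adjustment over all genes tested and a threshold of 0.05. Only the groups compared entered a fit, except for the interaction, which used all 16 libraries. SEs were derived from the F statistic. The study itself used limma with voom, which was an alternative here (limma 3.58.1), as was DESeq2 1.42.0. Other alternatives were other scalings, filters, a replicate block, a replicate-split covariate, each set of replicates alone and leaving out each library. Tests were run on simulated counts drawn independently for each library, without a replicate split, so that check does not cover the split. Same-numbered libraries did not deviate together in every pair, so the numbers were not treated as pairing. Log2 CPM used a prior count of 2.

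The members and lists were chosen with earlier results of these data known. All 9 members are named; listed genes are named by smallest p (2 per direction among those called in the culture comparisons, 1 in the genotype comparisons), with Rnaseh2c, Mb21d1 and Ifnb1 added for their roles. Cd28 and Ctla4 matched more than 1 row and were left out of the marker lists. Coordinates and overlaps are from GENCODE M21 (GRCm38), which held 98.9% of the gene entries. One marker gene, and the sum of the naive T cell markers that holds it, are not reported here.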

Additional observations from a re-analysis of the deposited data

Results flagged for a closer look

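Values of 36 sets of 4 libraries (9 members in 4 groups) were checked for a library far from the other 3, where chance gives about 1 in 20. In 2 sets a library stood apart, each time for Zbp1. In Aim2-/- Tn, the highest library (replicate 3) was at 137 CPM. In Aim2-/- Treg, the lowest library (replicate 4) was at 16.9 CPM. Without the first, the Zbp1 log2 fold change of Aim2-/- against WT in Tn was 0.19 in place of 0.31, and without the other, that in Treg was -0.07 in place of -0.20. The interaction was -0.38 and -0.37 without each in turn, in place of -0.50, and no value was called with or without them.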

How the results depend on the processing

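The culture calls of Tmem173, Tbk1, Ikbke, Irf3, Zbp1, Trex1 and Rnaseh2b kept their direction and their side of the threshold under every alternative run, and no alternative called a member in a genotype comparison or in the interaction. The number of members called in culture was 8 with all libraries and 7 to 8 with a library left out, in each genotype. The Ddx41 call in WT was lost with scaling by library totals (adjusted p = 0.050), with the replicate block (0.058) and within replicates 3 and 4 (0.12), and that in Aim2-/- within replicates 1 and 2 (0.059). Samhd1 was called in WT within replicates 3 and 4 (0.045), and in Aim2-/- with 10 counts required in every library (0.047) and with all 16 libraries in one fit (0.046). Same-numbered libraries correlated at 0.02 to 0.30 in Tn and -0.01 to 0.39 in Treg across genotypes, and the replicate block gave 29 calls over all genes in Tn, 41 in Treg, 10352 and 10859 in culture (WT and Aim2-/-) and 2 in the interaction; beyond Ddx41 it changed no member's call. Genes called in Tn (31) numbered 128 with DESeq2, 47 without a filter, 18 with 10 counts in every library, 50 with all libraries in one fit, 51 with the split covariate, 499 within replicates 3 and 4, and 17 to 28 with a library left out. The lowest counts were 17, 18 and 19 without Aim2-/- Tn replicates 4, 3 and 2, and 19 without WT Tn replicate 1. Genes called in Treg (29) numbered 52 with DESeq2, 17 with the stricter filter, 5 within replicates 3 and 4, and 10 to 17 with any library left out. The interaction (3 genes) gave 10 with DESeq2, 0 with the stricter filter (where edgeR then tested fewer genes) and 2 to 5 with a library left out, the 5 being without Aim2-/- Tn replicate 1. The causes were not tested.

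Values near 0 changed sign, none of them called. In Tn, Tbk1 was -0.0102 with RLE, -0.0090 with totals, -0.0100 with DESeq2, -0.0147 without a filter, -0.0030 with the stricter filter and -0.0111 within replicates 1 and 2, and Ddx41 was -0.0079, -0.0138, -0.0081, -0.0123, -0.0005 and -0.0162 in the same order. Within replicates 3 and 4, Tn values were -0.1111 for Tmem173, -0.0006 for Ikbke and -0.0253 for Irf3. In Treg, replicates 1 and 2 gave 0.0345 for Tbk1, -0.0083 for Irf3, -0.0298 for Trex1 and -0.0093 for Ddx41, and Samhd1 was -0.0143 with totals and -0.0425 within replicates 3 and 4. In culture in WT, Samhd1 was 0.0396 within replicates 1 and 2. In the interaction, Tmem173 was -0.3696 and Tbk1 0.0578 within replicates 1 and 2, Tbk1 0.0156 without a filter and Irf3 0.1579 within replicates 3 and 4. With a library left out, ranges crossed 0 in Tn for Tmem173 (-0.0229 to 0.2769), Tbk1 (-0.0376 to 0.0607) and Ddx41 (-0.0238 to 0.0370), in Treg for Tbk1 (-0.0443 to 0.0222), Irf3 (-0.0240 to 0.1502) and Samhd1 (-0.0450 to 0.0644), and in the interaction for Tmem173 (-0.0208 to 0.2816), Tbk1 (-0.0673 to 0.0367) and Irf3 (-0.1093 to 0.0674). The Ikbke to Tbk1 ratio per kilobase turned from 1.33 to 0.621 in WT Treg and from 1.204 to 0.561 in Aim2-/- Treg with all exons merged. Depth did not limit the members, whose lowest count was 226, but it limits Ccl5, Oas2 and Rsad2 in Treg cells.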
